A study of Mus musculus with 12 samples.

Results

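The colony stimulating factors and their receptors were followed as 7 genes, the ligands Csf1, Csf2 and Csf3 and the receptor chains Csf1r, Csf2ra, Csf2rb and Csf3r. They were taken by gene symbol from a count table of 21956 mouse genes, in which each of the 7 had its own row. RNA sequencing was done on brain tissue bordering the haematoma, collected 48 h after intracerebral haemorrhage (ICH) produced by injecting collagenase into the right striatum, and on matching tissue of sham-operated mice that received no collagenase. Mice of both operations carried either floxed Fabp4 alleles (Fabp4fl_fl) or a Fabp4 deletion made with a tamoxifen-inducible Cre under control of the microglial gene Tmem119 (Fabp4CKO). Each of the 4 groups, Sham-Fabp4fl_fl, Sham-Fabp4CKO, ICH-Fabp4fl_fl and ICH-Fabp4CKO, had 3 libraries, 12 in all. Whether the Fabp4fl_fl mice carried Cre or received tamoxifen, and the age of these mice, is not given in the sources used here. The labels do not state that each library came from a different mouse, so p-values measure only the spread between these libraries. Fabp4, which encodes a fatty acid binding protein, checks the deletion. It had 46, 63 and 24 counts in ICH-Fabp4fl_fl against 5, 3 and 10 in ICH-Fabp4CKO, and 2, 1 and 2 in Sham-Fabp4fl_fl against 0 in all 3 Sham-Fabp4CKO libraries.

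Colony stimulating factors are secreted cytokines that keep myeloid cells alive and drive their growth and maturation. CSF1 and the unrelated cytokine IL-34 both act through CSF1R, a receptor tyrosine kinase on which microglia depend for survival. CSF2 (GM-CSF) binds the specific chain CSF2RA, which signals together with the common beta chain CSF2RB, and CSF3 (G-CSF) acts through CSF3R, the receptor best known from neutrophils and their precursors.

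Total counts per library ran from 15650813 to 22406216, with medians of 18752000 in Sham-Fabp4fl_fl, 20870313 in Sham-Fabp4CKO, 15923027 in ICH-Fabp4fl_fl and 18478109 in ICH-Fabp4CKO. Levels are given as CPM (counts scaled to 1e+06 a library), scaled between libraries by the trimmed mean of M-values (TMM). ICH-Fabp4CKO library 1 held 1 count from Y-linked genes against 1302 to 2251 in the other 11 libraries, and its summed erythroid markers were the highest of the 12 at 1125 CPM. ICH-Fabp4fl_fl library 1 had 16.3% of its counts in mitochondrial genes, against 7.90% to 11.9% elsewhere. Rises of the members in Fabp4CKO, and the differences of Csf3r and Csf2rb between the genotypes, are also given without ICH-Fabp4CKO library 1.

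**Figure D1:**
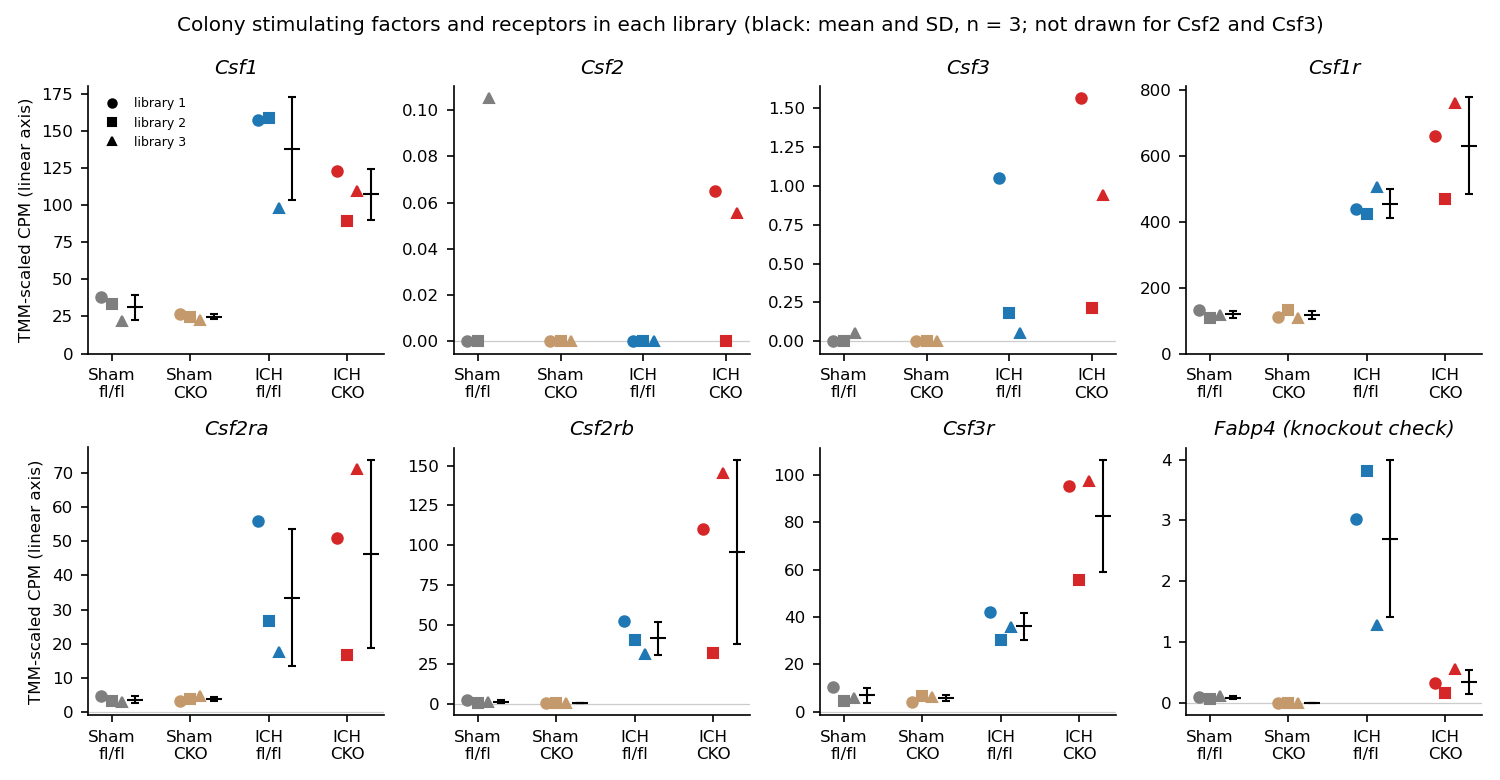
Level of each of the 7 genes and of Fabp4 in every library, in TMM-scaled CPM on linear axes that differ between panels, with the mean and SD of 3 libraries in black (not drawn for Csf2 and Csf3). Csf1, Csf1r, Csf2ra, Csf2rb and Csf3r lie higher in all 6 ICH libraries than in all 6 sham libraries, Csf2 is at or near 0 throughout, and ICH-Fabp4CKO library 2 (red square) lies below the other 2 ICH-Fabp4CKO libraries in every receptor panel.

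After ICH, the ligand Csf1 and the 4 receptor genes rose in both genotypes, by 3.88- to 24.6-fold in Fabp4fl_fl and 4.38- to 98.5-fold in Fabp4CKO, with Csf2rb at the upper end of each range. In Fabp4fl_fl, 5 of the 5 members that passed the filter on low counts were higher at an adjusted p under 0.05 (edgeR quasi-likelihood test with Benjamini-Hochberg adjustment over all genes), where 26.2% of the 14719 genes tested were called higher. In Fabp4CKO the count was likewise 5 of 5, where 24.5% of 14737 genes were called higher, a share that ran from 4.69% to 34.8% when single libraries were left out. The median log2 fold change of the members tested was 2.38 in Fabp4fl_fl and 3.55 in Fabp4CKO, beside 0.02 and 0.01 over all genes tested. Csf2 and Csf3 did not pass the filter in these comparisons. The tissue was sequenced in bulk, so that more cells of a type and more RNA per cell cannot be told apart.

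Among the ligands, Csf1, whose product acts through CSF1R, stood at 38.4, 33.2 and 21.9 CPM in Sham-Fabp4fl_fl and at 158, 159 and 98.1 CPM in ICH-Fabp4fl_fl. It stood at 26.6, 24.8 and 22.9 CPM in Sham-Fabp4CKO and at 123.2, 89.1 and 110 CPM in ICH-Fabp4CKO. All 6 ICH libraries lay above all 6 sham libraries. The log2 fold change was 2.16 (SE 0.28, adjusted p = 0.00128, edgeR) in Fabp4fl_fl and 2.13 (SE 0.16, adjusted p = 0.00478, edgeR) in Fabp4CKO. The difference between these responses was -0.08 on the log2 scale (SE 0.35, interaction term over the 12 libraries, adjusted p = 0.964, edgeR).

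Csf2, the granulocyte and macrophage factor, was at the floor of detection. It had 0, 0 and 2 counts in Sham-Fabp4fl_fl, 0 in every library of Sham-Fabp4CKO and ICH-Fabp4fl_fl, and 1, 0 and 1 counts in ICH-Fabp4CKO. A group total of 0 allows up to 3 counts, which is 0.0468 CPM over the 3 Sham-Fabp4CKO libraries and 0.0593 CPM over the 3 ICH-Fabp4fl_fl libraries, counting error only. No difference in Csf2 was detectable at this depth. An antisense gene, Gm12223, overlaps the span of Csf2, introns included, over 2068 bases. Of the distinct 50-base stretches of Csf2 transcripts, 6.39% also occur in those of Gm12223. Since the library kit as stated does not mark strand, reads of the 2 genes cannot be told apart in such stretches.

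Csf3, the factor that mobilises neutrophils, was nearly absent from sham tissue and low after ICH. It had 0, 0 and 1 counts in Sham-Fabp4fl_fl and 16, 3 and 1 in ICH-Fabp4fl_fl. It had 0 in all 3 Sham-Fabp4CKO libraries and 24, 4 and 17 in ICH-Fabp4CKO. Within each genotype the ICH libraries lay above the sham libraries in CPM, although by 0.0531 against 0.0526 CPM between the lowest ICH-Fabp4fl_fl library and the highest sham library. Summed over the group, Csf3 per total count was 22.2-fold higher after ICH in Fabp4fl_fl, with an exact 95% binomial interval of 3.55 to 921 that covers counting error only. Of the 20 counts in ICH-Fabp4fl_fl 16 came from library 1, the one with the high mitochondrial share, and without it the ratio was 6.46-fold on 4 counts against 1 (interval 0.64 to 318). In Fabp4CKO Csf3 was at least 17.7-fold higher, taking 3 counts over the sham group as the floor, and at least 11.6-fold higher without ICH-Fabp4CKO library 1, on 21 counts. An exact two-sided permutation test of CPM over libraries gave p = 0.1 in each genotype, the smallest value that 3 against 3 libraries allow.

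The receptor of CSF1 and IL-34, Csf1r, was the most abundant of the 7 genes. It stood at 131, 108 and 117 CPM in Sham-Fabp4fl_fl and rose to 437, 424 and 503 CPM in ICH-Fabp4fl_fl. It stood at 112, 131 and 108 CPM in Sham-Fabp4CKO and rose to 659, 470 and 761 CPM in ICH-Fabp4CKO. The 2 sham groups overlapped almost entirely, and every ICH library was above every sham library. The log2 fold change was 1.96 (SE 0.17, adjusted p = 0.000383, edgeR) in Fabp4fl_fl and 2.44 (SE 0.22, adjusted p = 0.00478, edgeR) in Fabp4CKO. On the annotated genome Csf1r overlaps Hmgxb3 on the opposite strand over 873 bases, and 14.3% of the distinct 50-base stretches of its transcripts also occur in those of Hmgxb3. Hmgxb3 had a mean of 50.9 CPM in Sham-Fabp4fl_fl and 29.96 CPM in ICH-Fabp4fl_fl, the opposite order to Csf1r.

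The specific chain of the GM-CSF receptor, Csf2ra, stood at 4.74, 3.42 and 2.94 CPM in Sham-Fabp4fl_fl and at 55.9, 26.8 and 17.8 CPM in ICH-Fabp4fl_fl. It stood at 3.45, 3.81 and 4.69 CPM in Sham-Fabp4CKO and at 51.0, 16.7 and 71.1 CPM in ICH-Fabp4CKO. The ICH libraries spread over more than the sham libraries did, yet none reached down to a sham value. The log2 fold change was 3.19 (SE 0.46, adjusted p = 0.00191, edgeR) in Fabp4fl_fl and 3.55 (SE 0.54, adjusted p = 0.0086, edgeR) in Fabp4CKO. Without ICH-Fabp4fl_fl library 1, which held the highest value of its group, the log2 fold change in Fabp4fl_fl was 2.58 (adjusted p = 0.00171, edgeR). In Fabp4CKO the call was lost when any 1 of the 3 sham libraries was left out, with adjusted p between 0.0507 and 0.0533 and log2 fold changes of 3.45 to 3.68.

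Csf2rb, the common beta chain through which GM-CSF, IL-3 and IL-5 signal, showed the largest fold changes of the 5 members tested. It stood at 2.49, 0.994 and 1.58 CPM in Sham-Fabp4fl_fl and at 52.4, 40.5 and 31.6 CPM in ICH-Fabp4fl_fl. It stood at 0.898, 0.953 and 1.08 CPM in Sham-Fabp4CKO and at 110, 32.1 and 145 CPM in ICH-Fabp4CKO. ICH-Fabp4CKO library 2 thus fell within the ICH-Fabp4fl_fl range, while libraries 1 and 3 lay above it. The log2 fold change was 4.62 (SE 0.36, adjusted p = 0.00035, edgeR) in Fabp4fl_fl and 6.62 (SE 0.66, adjusted p = 0.00478, edgeR) in Fabp4CKO.

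The mouse genome carries a second beta chain gene, Csf2rb2, whose product serves IL-3. On GRCm38.p6 it lies at chr15:78282507-78305721 on the minus strand, beside Csf2rb at chr15:78325752-78353847 on the plus strand. The coding sequences of the 2 genes' reference transcripts were identical at 95.2% of 2628 aligned positions, with an identical run of up to 242 bases, and 892 of the 7268 distinct 50-base stretches of Csf2rb transcripts also occur in Csf2rb2. The stretches below, from the GENCODE vM21 transcripts, bear on the split of reads between these 2 genes, which is uncertain. Over coding bases 309 to 428 of Csf2rb and 312 to 431 of Csf2rb2 there were 22 differences in 120 bases, shown in capitals, whereas over coding bases 2083 to 2202 of both there were 0.
Csf2rb 309 to 428: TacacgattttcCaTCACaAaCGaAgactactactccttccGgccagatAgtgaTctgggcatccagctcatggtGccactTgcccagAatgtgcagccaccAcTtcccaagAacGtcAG
Csf2rb2 312 to 431: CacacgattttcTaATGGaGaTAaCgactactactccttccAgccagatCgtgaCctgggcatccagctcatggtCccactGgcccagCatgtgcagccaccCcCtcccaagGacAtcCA
Csf2rb and Csf2rb2 2083 to 2202: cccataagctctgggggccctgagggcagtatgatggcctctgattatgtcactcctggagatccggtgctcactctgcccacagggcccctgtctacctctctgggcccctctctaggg

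Csf2rb2 tracked Csf2rb. It stood at 1.82, 1.82 and 0.631 CPM in Sham-Fabp4fl_fl, at 48.6, 30.1 and 25.3 CPM in ICH-Fabp4fl_fl, at 0.662, 1.41 and 0.796 CPM in Sham-Fabp4CKO and at 108, 24.7 and 143 CPM in ICH-Fabp4CKO. With the counts of both genes summed into 1 row, the log2 fold change after ICH was 4.62 in Fabp4fl_fl (adjusted p = 0.000337, edgeR) and 6.61 in Fabp4CKO (adjusted p = 0.00542, edgeR). A sum of the 2 genes cannot depend on how reads were shared out between them, so it does not say how far Csf2rb alone rose.

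Csf3r, the G-CSF receptor, stood at 10.6, 4.58 and 5.73 CPM in Sham-Fabp4fl_fl and at 42.0, 30.5 and 35.8 CPM in ICH-Fabp4fl_fl. It stood at 4.26, 6.71 and 6.09 CPM in Sham-Fabp4CKO and at 95.4, 55.5 and 97.6 CPM in ICH-Fabp4CKO. All ICH libraries were above all sham libraries, and the 3 ICH-Fabp4CKO libraries were above the 3 ICH-Fabp4fl_fl libraries. Of the distinct 50-base stretches of Csf3r transcripts, 8.84% also occur in those of AC105061.2. The log2 fold change was 2.38 (SE 0.33, adjusted p = 0.0016, edgeR) in Fabp4fl_fl and 3.88 (SE 0.31, adjusted p = 0.00478, edgeR) in Fabp4CKO. Without ICH-Fabp4CKO library 1, the log2 fold changes in Fabp4CKO were 2.01 for Csf1, 2.40 for Csf1r, 3.47 for Csf2ra, 6.50 for Csf2rb and 3.76 for Csf3r, with adjusted p between 0.0206 and 0.0369 (edgeR).

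Per kilobase of the longest coding transcript, Csf1r was the highest of the 7 genes in every group, at a mean of 25.2 CPM per kb in Sham-Fabp4fl_fl, 24.9 in Sham-Fabp4CKO, 96.7 in ICH-Fabp4fl_fl and 134 in ICH-Fabp4CKO. In Sham-Fabp4fl_fl the means per kb then ran from Csf1 at 7.46, through Csf3r at 2.01 and Csf2ra at 2.00, to Csf2rb at 0.344. The library ranges of Csf3r (1.32 to 3.05 CPM per kb) and Csf2ra (1.59 to 2.56 CPM per kb) overlapped there, while Csf1 stood above both and Csf2rb below both. In ICH-Fabp4fl_fl the order of the means per kb was Csf1 at 33.1, Csf2ra at 18.1, Csf3r at 10.4 and Csf2rb at 8.46, and each neighbouring pair in that order overlapped in its library ranges. In ICH-Fabp4CKO the means per kb of Csf1 (25.7), Csf2ra (25.0), Csf3r (23.8) and Csf2rb (19.6) lay close together, again with overlapping library ranges. Csf3 reached at most 1.11 CPM per kb and Csf2 0.131 CPM per kb in any library.

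Promoter sequence from RefSeq on GRCm38.p6, the 250 bases before the annotated start, was at hand for 4 of the 7 genes, namely Csf1, Csf2, Csf2ra and Csf3r. Csf1 and Csf2ra are shown as a ligand and a receptor that rose together. Capitals mark GAGGAA, the core bound by ETS factors such as the myeloid regulator PU.1.
Csf1, chr3:107760470-107760719, minus strand: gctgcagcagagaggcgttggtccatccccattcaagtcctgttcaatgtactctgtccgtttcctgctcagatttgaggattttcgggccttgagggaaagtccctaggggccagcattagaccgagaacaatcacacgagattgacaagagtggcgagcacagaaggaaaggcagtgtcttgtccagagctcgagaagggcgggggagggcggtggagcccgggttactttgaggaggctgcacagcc
Csf2ra, chr19:61228419-61228668, minus strand: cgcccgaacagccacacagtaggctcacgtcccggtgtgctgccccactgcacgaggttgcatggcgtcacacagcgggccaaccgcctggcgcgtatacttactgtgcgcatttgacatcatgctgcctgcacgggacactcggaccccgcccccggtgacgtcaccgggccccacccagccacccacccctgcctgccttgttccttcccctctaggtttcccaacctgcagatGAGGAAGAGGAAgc
Csf3r, chr4:126024561-126024590, plus strand, 30 bases around the match: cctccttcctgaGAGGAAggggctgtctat

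GAGGAA, searched on both strands, occurred in 2 of the 4 promoters, those of Csf2ra (at -14 to -9 and again at -8 to -3 from the start) and Csf3r (at -86 to -81), and in 23.3% of all 32851 promoter windows of this length. The Csf2 window ends 232 bases before the start of that gene as GENCODE vM21 draws it, and those bases were not searched. The last 11 bases of the Csf2ra window and the last 109 of the Csf3r window lie inside the gene in that annotation. The C/EBP letters TTGCNNAA occurred in 1 of the 4, that of Csf2, against 9.56% of all windows. The NF-kB motif, searched in a loose form of 10 letters with 5 left free, occurred in 3 of the 4, against 45.8% of all windows. Those for AP-1 (TGANTCA), STAT (TTCNNNGAA) and a TATA box (TATAAA) occurred in 0 of the 4, against 6.75%, 7.02% and 12.4% of all windows. A STAT match can overlap a GAGGAA match at its last letters. No match says only that these letters are not in the window.

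**Figure D2:**
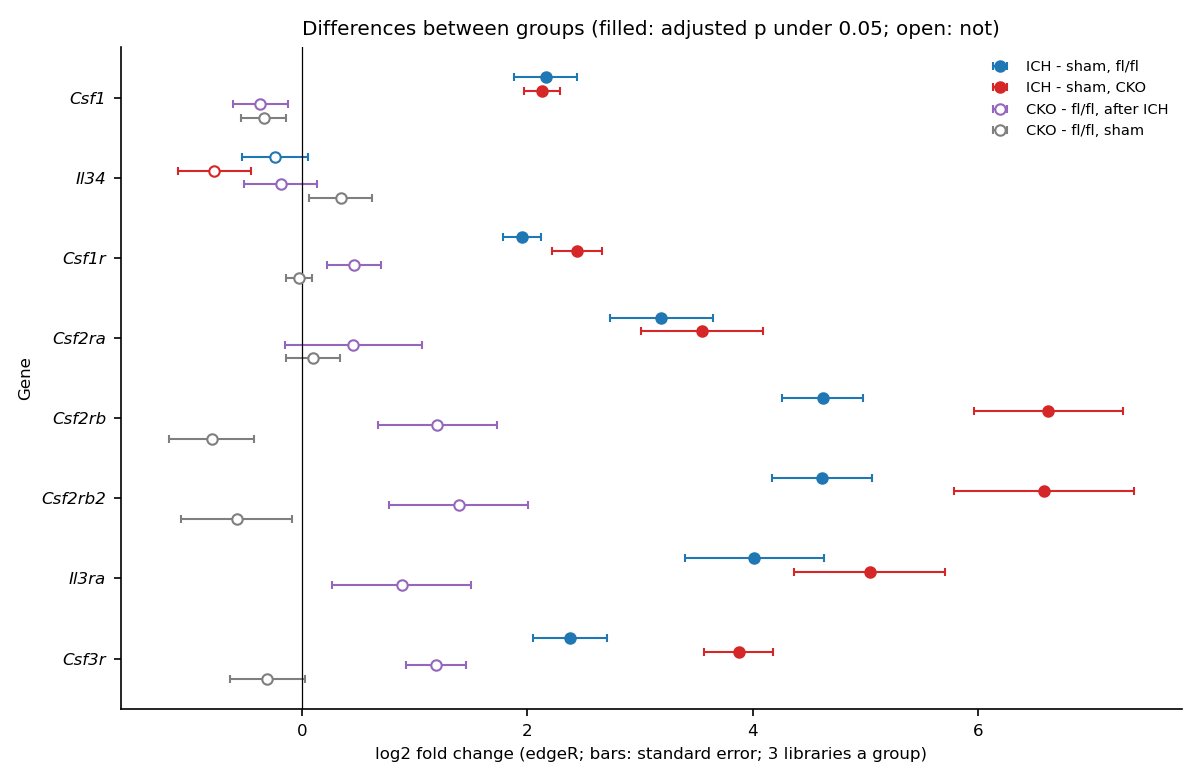
Log2 fold changes with standard errors (edgeR, 3 libraries a group) of 5 members and of the related genes Il34, Csf2rb2 and Il3ra in the 4 pairwise comparisons, filled where the adjusted p was under 0.05. Every filled point is an ICH against sham difference and lies between 1.96 and 6.62, and every difference between the genotypes is open.

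The genotypes were next compared after ICH, which asks whether the deletion of Fabp4 goes with another level of these genes in injured tissue. No member was called at an adjusted p under 0.05, and neither was any other gene (0.0% of the 14600 tested, edgeR). At an unadjusted p under 0.05, 1 of the 6 members tested was called, Csf3r, where 12.2% of genes were. Csf3r was 2.28-fold higher in Fabp4CKO (log2 fold change 1.19, SE 0.26, adjusted p = 0.295, edgeR), and its groups did not overlap, which held for 10.3% of genes in that direction. DESeq2 called Csf3r (log2 fold change 1.16, adjusted p = 0.00686) among 3.96% of genes, and edgeR's exact test called it (adjusted p = 0.0168) among 1.82%. Leaving out each library in turn kept the log2 fold change of Csf3r between 1.06 and 1.41, with adjusted p from 0.0697 to 0.670 (edgeR). Without ICH-Fabp4CKO library 1 it was 1.08 (adjusted p = 0.633, edgeR).

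The other members differed less or with more spread. Csf2rb had a log2 fold change of 1.20 (SE 0.53, adjusted p = 0.427, edgeR), and 1.29 with Csf2rb2 added to it. Without ICH-Fabp4CKO library 1 it was 1.09 for Csf2rb. Csf3 had 45 counts in ICH-Fabp4CKO against 20 in ICH-Fabp4fl_fl, with overlapping libraries and a log2 fold change of 1.09 (SE 1.08, adjusted p = 0.713, edgeR) that lay between 0.45 and 2.89 when single libraries were left out. For Csf1r the value was 0.46 (SE 0.24, adjusted p = 0.48, edgeR) and for Csf2ra 0.46 (SE 0.61, adjusted p = 0.79, edgeR). Csf2ra ranged from 0.01 to 1.05 when single libraries were left out, with ICH-Fabp4CKO library 2 the lowest of the 6 ICH libraries. Csf1 alone had a lower mean in Fabp4CKO, at 107 ± 17.2 CPM against 138 ± 34.7 CPM (SD, n = 3). That is -0.37 on the log2 scale (SE 0.25, adjusted p = 0.57, edgeR).

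In sham tissue 16 of 14395 genes, 0.111%, differed between the genotypes at an adjusted p under 0.05, and none of the 5 members tested was among them. At an unadjusted p under 0.05, 10.2% of genes and 0 of the 5 members were called (edgeR), and DESeq2 and edgeR's exact test also called 0 members. The log2 fold changes of Fabp4CKO against Fabp4fl_fl were -0.34 (SE 0.20) for Csf1, -0.02 (SE 0.11) for Csf1r, 0.10 (SE 0.24) for Csf2ra, -0.80 (SE 0.38) for Csf2rb and -0.31 (SE 0.33) for Csf3r. Sham-Fabp4fl_fl library 1 held the highest sham value of Csf1, Csf2ra, Csf2rb and Csf3r. Without Sham-Fabp4fl_fl library 3, which had the lowest sham Csf1 value, Csf1 was lower in Fabp4CKO with a log2 fold change of -0.54 (adjusted p = 0.0093, edgeR). The number of all genes called ran from 0 to 2862 when single sham libraries were left out, against 16 in the full fit, so this call is not particular to Csf1.

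Whether the response to ICH differed between the genotypes was tested by an interaction term over all 12 libraries, which called 3 of 15089 genes (0.0199%) and no member at an adjusted p under 0.05. At an unadjusted p under 0.05 it called 2 of the 6 members tested, where 9.94% of genes were called. They were Csf3r, whose response was 1.45 larger on the log2 scale in Fabp4CKO (SE 0.46, adjusted p = 0.344, edgeR), and Csf2rb, whose response was 1.95 larger (SE 0.73, adjusted p = 0.408, edgeR). Without ICH-Fabp4CKO library 2 the Csf2rb term was 2.37 (adjusted p = 0.0341, edgeR), and without ICH-Fabp4CKO library 1 it was 1.86 (adjusted p = 0.527, edgeR). The number of all genes called by the interaction ran from 0 to 371 when single libraries were left out, against 3 in the full fit. For Csf1r the term was 0.45 (SE 0.25, adjusted p = 0.584, edgeR) and for Csf2ra 0.30 (SE 0.74, adjusted p = 0.926, edgeR). No term is given for Csf3, whose sham libraries were at 0 or 1 count.

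**Figure D3:**
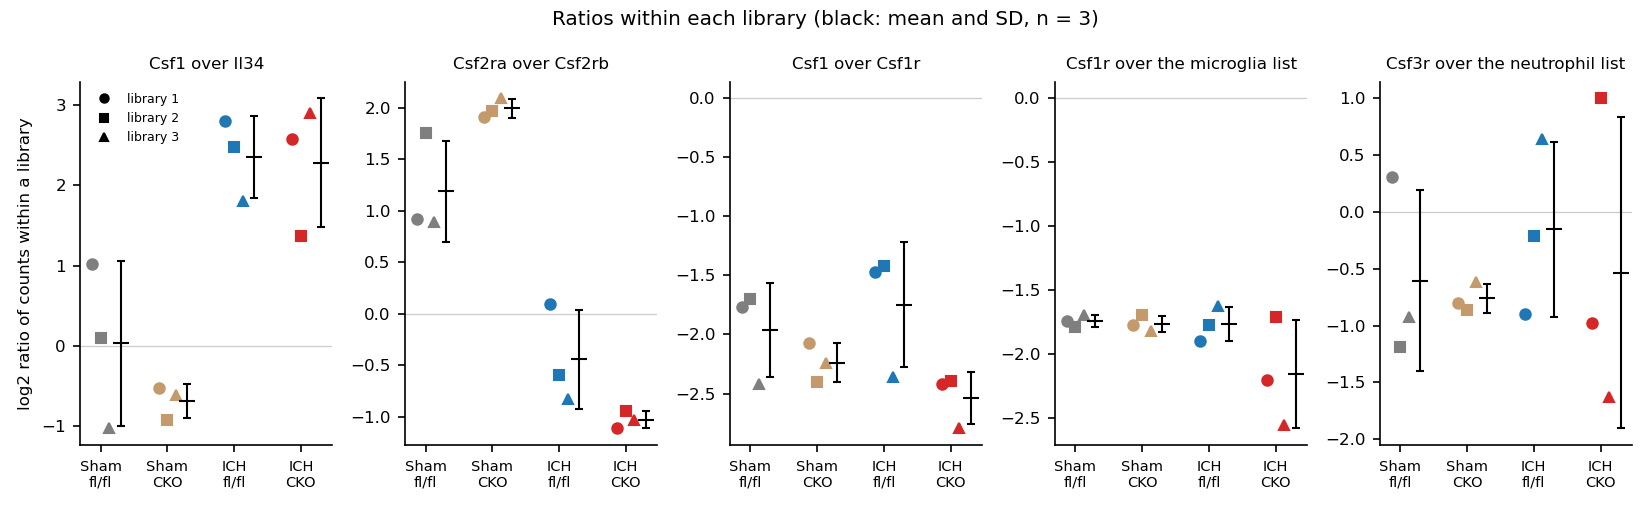
Log2 ratio of the counts of 2 genes, or of a gene and a summed marker list, within each library, with the mean and SD of 3 libraries in black. Csf1 over Il34 lies higher in all 6 ICH libraries than in all 6 sham libraries, Csf2ra over Csf2rb lies lower in them, and Csf1r over the microglia list stays between -1.90 and -1.63 in every library but ICH-Fabp4CKO libraries 1 and 3.

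Ratios within a library compare ligand with ligand, chain with chain and ligand with receptor, free of the scaling between libraries. The 2 ligands of CSF1R parted. Il34, which neurons make in the healthy brain, stood at 18.9, 31.1 and 44.8 CPM in Sham-Fabp4fl_fl against 22.5, 28.5 and 28.1 CPM in ICH-Fabp4fl_fl (log2 fold change -0.24, SE 0.29, adjusted p = 0.519, edgeR). It stood at 38.3, 47.3 and 35.1 CPM in Sham-Fabp4CKO against 20.6, 34.3 and 14.6 CPM in ICH-Fabp4CKO (log2 fold change -0.78, SE 0.33, adjusted p = 0.0984, edgeR). The log2 ratio of Csf1 to Il34 counts went from 0.03 ± 1.03 to 2.36 ± 0.51 in Fabp4fl_fl and from -0.69 ± 0.21 to 2.29 ± 0.81 in Fabp4CKO (SD, n = 3). In each genotype the ICH and sham libraries did not overlap, and the exact two-sided permutation test gave p = 0.1, its smallest possible value, or 0.286 after Benjamini-Hochberg adjustment over the 20 ratio comparisons made. None of the 20 could reach 0.05.

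The 2 chains of the GM-CSF receptor did not rise in step. The log2 ratio of Csf2ra to Csf2rb counts was 0.92, 1.76 and 0.89 in Sham-Fabp4fl_fl and 1.91, 1.97 and 2.10 in Sham-Fabp4CKO. It was 0.09, -0.59 and -0.83 in ICH-Fabp4fl_fl and -1.11, -0.94 and -1.03 in ICH-Fabp4CKO. The mean fell by 1.63 with ICH in Fabp4fl_fl and by 3.02 in Fabp4CKO, and it was 0.58 lower in ICH-Fabp4CKO than in ICH-Fabp4fl_fl, in each case with no overlap between libraries and an exact permutation p of 0.1. The sham groups also differed, by 0.81 in the opposite direction, with no overlap (exact permutation p = 0.1, adjusted p = 0.286). The count ratio takes no account of gene length, and per kilobase Csf2ra stood above Csf2rb in 12 of 12 libraries. This ratio rests on the share of reads given to Csf2rb rather than Csf2rb2. The log2 ratio of Csf1 to Csf1r was -1.47, -1.42 and -2.36 in ICH-Fabp4fl_fl and -2.42, -2.40 and -2.80 in ICH-Fabp4CKO, a mean difference of -0.79 in which the nearest libraries, at -2.36 and -2.40, almost met (exact permutation p = 0.1, adjusted p = 0.286).

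The remaining partners of these receptors were few in this tissue. Il3ra, the specific chain of the IL-3 receptor, stood at 0.158 to 0.766 CPM in the 6 sham libraries and rose to 11.4, 5.93 and 4.20 CPM in ICH-Fabp4fl_fl (log2 fold change 4.02, SE 0.61, adjusted p = 0.00245, edgeR). In ICH-Fabp4CKO it was at 14.2, 4.43 and 21.4 CPM (log2 fold change 5.04, SE 0.67, adjusted p = 0.00667, edgeR), with library 2 again the lowest. The ligand Il3 had 0 counts in all 12 libraries, Il5 had 3 counts in 2 libraries and 0 in the others, and Il5ra had 2 counts in 1 library and 0 in the others. Of the 6 partners, 3 passed the filter and 2 were called higher after ICH in each genotype, Il3ra and Csf2rb2.

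Downstream of the receptors, 17 of 23 genes of JAK, STAT, adaptor and SOCS signalling were called higher after ICH in Fabp4fl_fl and 17 of 23 in Fabp4CKO, with 0 lower in either, and the medians of the list were 1.77 and 2.01 on the log2 scale. Of all genes tested 26.2% and 24.5% were called higher in these comparisons, and these shares are also the background of the list counts that follow. Without ICH-Fabp4CKO library 1, 13 of the 23 were called in Fabp4CKO, where 9.63% of genes were. Socs3, a feedback inhibitor induced by STAT3, rose from 2.00 ± 0.779 to 76.6 ± 31.7 CPM in Fabp4fl_fl (SD, n = 3, log2 fold change 5.27, adjusted p = 0.00035, edgeR) and from 1.57 ± 0.146 to 53.6 ± 30.6 CPM in Fabp4CKO (log2 fold change 5.11, adjusted p = 0.00478, edgeR). Ptpn6, which encodes the phosphatase SHP-1, had a log2 fold change of 3.41 in Fabp4fl_fl. Next in Fabp4CKO came Tyrobp, the adaptor DAP12 of microglia and macrophages (log2 fold change 4.96), and the kinase Syk that binds it (4.67). Between the genotypes after ICH 0 of the 23 were called, with 4 at an unadjusted p under 0.05 (edgeR), beside 12.2% of all genes.

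Of 10 myeloid transcription factors 8 were tested, and 6 were called higher after ICH in each genotype with 0 lower, at list medians of 3.24 and 3.91 on the log2 scale. Spi1, which encodes PU.1, rose from 4.37 ± 0.636 to 58.3 ± 20.9 CPM in Fabp4fl_fl (SD, n = 3, log2 fold change 3.75, adjusted p = 0.00035, edgeR) and from 4.58 ± 1.03 to 87.4 ± 52.6 CPM in Fabp4CKO (log2 fold change 4.27, adjusted p = 0.0066, edgeR). Runx1, a regulator of blood cell formation, had log2 fold changes of 3.68 in Fabp4fl_fl and 5.64 in Fabp4CKO, and Irf8, needed by microglia and monocytes, had 3.33 in Fabp4fl_fl. Of 5 cytokines known to induce colony stimulating factors, 3 of 3 tested were called higher in Fabp4fl_fl and 4 of 4 in Fabp4CKO, with or without ICH-Fabp4CKO library 1. Il1b rose from 0.223 ± 0.272 to 6.15 ± 3.55 CPM in Fabp4fl_fl (SD, n = 3, log2 fold change 4.75, adjusted p = 0.00567, edgeR), and Tnf and Il1a by 4.40 and 2.75 on the log2 scale. In ICH-Fabp4CKO, Il1b stood at 46.1, 4.85 and 7.49 CPM, so that library 1 set most of its mean. Its log2 fold change in Fabp4CKO was 7.88 (adjusted p = 0.0113, edgeR), and 6.22 (adjusted p = 0.0237, edgeR) without that library. Il6 had 0 counts in Sham-Fabp4CKO and stood at 7.89, 1.23 and 1.28 CPM in ICH-Fabp4CKO, and it was called without library 1 as well (adjusted p = 0.0353, edgeR). Il17a had at most 3 counts in every library.

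**Figure D4:**
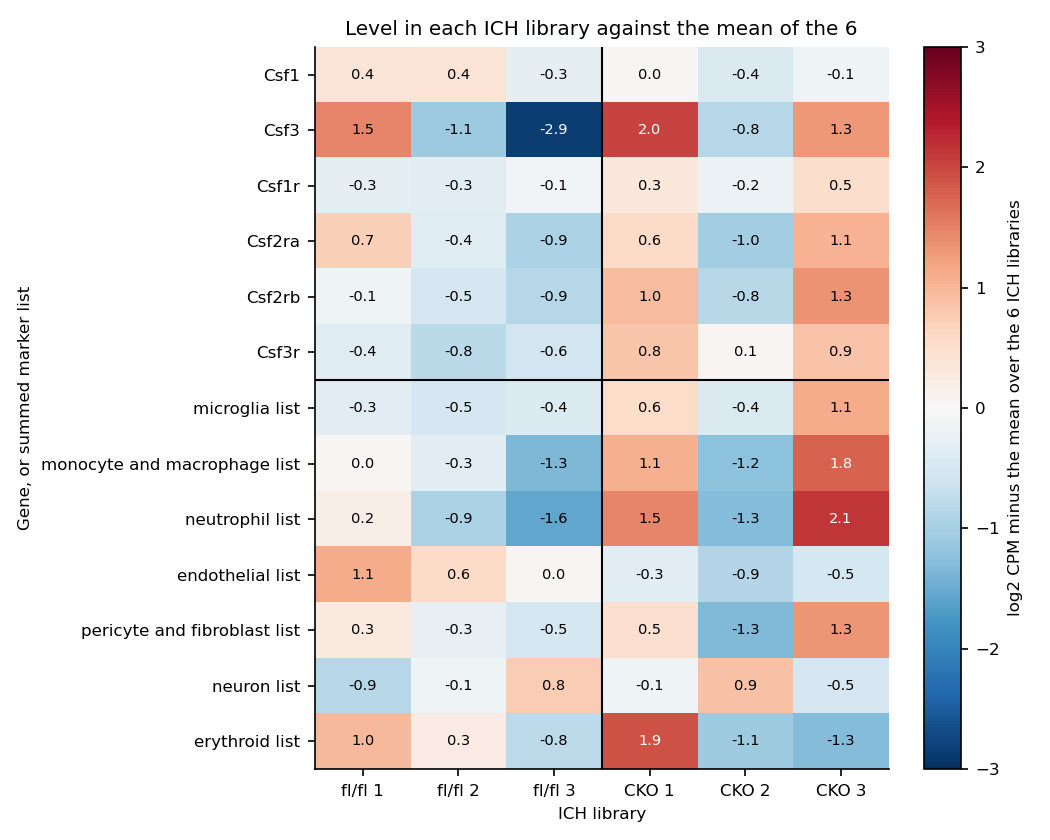
Log2 CPM of 6 members and log2 of the summed CPM of 7 marker lists in each of the 6 ICH libraries, as the difference from the mean over these 6. Library 2 of Fabp4CKO is below the mean for Csf2ra, Csf2rb and the microglia, monocyte and macrophage, and neutrophil lists, where libraries 1 and 3 are above it, whereas Csf3r in that library is near the mean and above all 3 Fabp4fl_fl libraries.

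The summed microglia, monocyte and macrophage, and neutrophil lists were highest in ICH-Fabp4CKO libraries 1 and 3, as were Csf1r, Csf2rb and Csf3r. All 12 monocyte and macrophage markers rose with ICH in both genotypes, from a summed 94.8 to 156 CPM in the sham libraries to 1330 to 3497 CPM in ICH-Fabp4fl_fl and 7107, 1446 and 11590 CPM in ICH-Fabp4CKO libraries 1, 2 and 3. Lyz2, a lysozyme of myeloid cells, led that list at a mean of 1019 CPM in ICH-Fabp4fl_fl and 4452 CPM in ICH-Fabp4CKO. Of 9 microglia markers 8 rose with ICH in each genotype, with sums of 373 to 438 CPM in sham, 1451 to 1625 CPM in ICH-Fabp4fl_fl and 3029, 1537 and 4481 CPM in ICH-Fabp4CKO. Without ICH-Fabp4CKO library 1, 10 of the 12 and 8 of the 9 were called higher in Fabp4CKO. Their part in the values of the members was not tested.

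Csf3r was set beside neutrophil markers, since the G-CSF receptor is a hallmark of neutrophils. Of 14 neutrophil markers 7 were tested in Fabp4fl_fl, with 5 called higher after ICH, and 9 in Fabp4CKO, with 6 called higher, or 5 of 9 without ICH-Fabp4CKO library 1. Between the genotypes after ICH 0 of 9 were called. At an unadjusted p under 0.05, 5 were higher in Fabp4CKO (edgeR), where 6.36% of all genes were. All 9 had a positive log2 fold change, with a list median of 2.59, but some passed the filter mainly through ICH-Fabp4CKO. Retnlg had 12, 2 and 3 counts in ICH-Fabp4fl_fl against 90, 10 and 79 in ICH-Fabp4CKO. Ngp had 26, 8 and 3 against 52, 24 and 1433, and Ltf 9, 9 and 3 against 24, 11 and 639. These genes are among the 5, so the 5, the shared direction and the median are partly set by the filter. The 14 summed to 7.42 to 12.3 CPM in sham, 78.2, 35.3 and 23.0 CPM in ICH-Fabp4fl_fl and 188, 27.8 and 302 CPM in ICH-Fabp4CKO. ICH-Fabp4CKO library 2 thus had a lower sum than 2 of the 3 ICH-Fabp4fl_fl libraries, while its Csf3r level of 55.5 CPM exceeded their highest, 42.0 CPM. The markers did not all share that order, and the sum was not computed without Mmp8. Mmp8 had 90 counts in that library against 397, 369 and 243 in ICH-Fabp4fl_fl libraries 1, 2 and 3. S100a8 (57 against 71, 18 and 28), S100a9 (116 against 138, 46 and 33) and Cxcr2 (41 against 71, 30 and 22) lay above libraries 2 and 3. Among the defining markers, Ly6g had 0 counts in all 3 ICH-Fabp4fl_fl libraries and in ICH-Fabp4CKO library 2, and 4 and 18 counts in ICH-Fabp4CKO libraries 1 and 3. The collagenase Mmp8, the highest of the list, averaged 20.4 CPM in ICH-Fabp4fl_fl and 35.0 CPM in ICH-Fabp4CKO. The log2 ratio of Csf3r to the summed neutrophil counts was -0.61 ± 0.80 in Sham-Fabp4fl_fl, -0.16 ± 0.77 in ICH-Fabp4fl_fl, -0.76 ± 0.13 in Sham-Fabp4CKO and -0.54 ± 1.37 in ICH-Fabp4CKO (SD, n = 3), with overlapping libraries in each comparison (exact permutation p from 0.5 to 1.0). Within ICH-Fabp4CKO it was -0.98, 1.00 and -1.63. Of the listed markers Hdc had the most counts in every sham library, with 90, 133 and 144 in Sham-Fabp4fl_fl and 115, 171 and 159 in Sham-Fabp4CKO. It had 71, 41 and 33 counts in ICH-Fabp4fl_fl (log2 fold change -1.09, adjusted p = 0.0643, edgeR) and 202, 96 and 63 in ICH-Fabp4CKO. The sham ratios thus rest largely on Hdc, which did not rise with the markers called, and the ratio was not computed without it.

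Csf1r held closer to the microglia list. The log2 ratio of its counts to the summed list was -1.74 ± 0.05 in Sham-Fabp4fl_fl, -1.77 ± 0.13 in ICH-Fabp4fl_fl, -1.76 ± 0.06 in Sham-Fabp4CKO and -2.16 ± 0.43 in ICH-Fabp4CKO (SD, n = 3). The last group spread most, with -2.20, -1.71 and -2.56 in libraries 1, 2 and 3. No comparison of this ratio was separated (exact permutation p from 0.3 to 0.9).

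Lists of other cell types are given for the same libraries. Their highest genes were Flt1 (endothelial), Rgs5 (pericyte and fibroblast), Gfap (astrocyte), Mbp (oligodendrocyte), Snap25 (neuron), Cd4 (T and NK cell) and Hbb-bs (erythroid). Summed endothelial markers were 496 to 1046 CPM in ICH-Fabp4fl_fl and 266 to 393 CPM in ICH-Fabp4CKO, without overlap. Summed oligodendrocyte markers were 18430 to 26560 CPM in ICH-Fabp4fl_fl and 7244 to 11470 CPM in ICH-Fabp4CKO, also without overlap. Summed neuronal markers were 3816 to 5616 CPM in the sham libraries and 1219 to 4085 CPM in the ICH libraries, pericyte and fibroblast markers 184 to 268 CPM and 306 to 1931 CPM, astrocyte markers 2783 to 3050 CPM and 5537 to 7501 CPM, and T and NK cell markers 17.9 to 59.4 CPM and 22.2 to 65.9 CPM. Cd4 made up most of that last sum, at a mean of 26.8 of 28.6 CPM in Sham-Fabp4fl_fl. Of the 10 T and NK cell markers, 7 of 9 tested were called higher after ICH in Fabp4fl_fl and 2 of 4 in Fabp4CKO. Between the genotypes after ICH 0 of 10 were called. At an unadjusted p under 0.05, 6 were lower in Fabp4CKO (edgeR), where 5.82% of all genes were. With 4 passing the filter in the Fabp4CKO comparison and 10 here, some may have passed only through their counts in ICH-Fabp4fl_fl. Erythroid markers were 17.3 to 165 CPM in sham and 122 to 1125 CPM after ICH.

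The genes whose log2 CPM over the 12 libraries was most like that of each member are a description, since all share the difference between ICH and sham. For Csf1 they were Slc1a5, Sdc4, Sh2d2a, Cnn3 and Osmr (Pearson r 0.990 to 0.997), and for Csf3 they were Hp, Mmp9, Hilpda, Ifrd1 and Fpr2 (r 0.959 to 0.971). For Csf1r they were Rasal3, Lpcat2, Cryzl2, Ly86 and Cx3cr1 (r 0.993 to 0.996), of which Cx3cr1 is the fractalkine receptor of microglia. For Csf2ra they were Tnfrsf26, Tgm2, Edem2, Renbp and Cotl1 (r 0.994 to 0.996). For Csf2rb they were Mmp3, Cxcl16, Itgb2, Myo1f and Elf4 (r 0.996 to 0.997), of which Itgb2 is the shared chain of the leukocyte integrins. For Csf3r they were Trem2, Tyrobp, Ebi3, C1qa and Hvcn1 (r 0.986 to 0.990), of which Trem2, Tyrobp and C1qa are genes of microglia and macrophages. Which cells the Csf3r reads came from was not tested.

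Over the 6 ICH libraries alone, the 3 most alike were Ttc5, Slc1a5 and Tmbim1 for Csf1, Rara, Ccl9 and Tfpi2 for Csf3, and Ptpn7, Minar1 and Cx3cr1 for Csf1r. They were Rpl10, Cyba and Lyset for Csf2ra, Rnf149, Cyth4 and Ccdc88b for Csf2rb, and Utp18, Adam33 and Eftud2 for Csf3r, all with r of 0.984 or more over 6 points. Among the members themselves, the receptor pairs had r of 0.9501 to 0.989 over the 12 libraries. Within the 6 ICH libraries Csf1r and Csf3r had r = 0.90 and Csf2ra and Csf2rb r = 0.88, whereas Csf1 had r = -0.34 with Csf1r and -0.32 with Csf3r.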

How the data were processed

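Poly(A) RNA was made into libraries with the NEBNext Ultra kit, and the authors deposited 1 table of estimated counts per gene for the 12 libraries, not normalised and not always whole. The submitters' processing notes name Bowtie2 2.2.8, HISAT2, StringTie 1.3.1 and DESeq2, without their roles. The genome build, annotation and counting settings are not given in the sources used here. Counts were rounded to whole numbers.

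Differences were tested with edgeR 4.0.16 (R 4.3.3): TMM scaling, filterByExpr with a minimum count of 10, glmQLFit and glmQLFTest, with Benjamini-Hochberg adjustment over all genes tested and calls at an adjusted p under 0.05. Each comparison used only its own 6 libraries, and the interaction all 12. Ratios of counts within a library had 0.5 added to each term and were compared by exact permutation (scipy 1.17.1). Binomial intervals are at 95%, and floors are 3 counts. DESeq2 1.42.0, edgeR's exact test, other scalings and filters, a replicate block and leaving out each library were tried. Summing Csf2rb with Csf2rb2, and the list counts and Csf3 ratios without single libraries, were added after seeing the data. The code was tested on simulated data.

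Named genes were the 7 members, Fabp4, the receptors' partners, the 3 genes with the largest change among those called in each further pathway list, the marker with the highest mean of each cell type list, markers at 3 counts or fewer in all libraries, and the genes most alike each member by Pearson correlation of log2 CPM (prior count 2). Hmgxb3 and Gm12223, which overlap members, and the neutrophil markers Ly6g, Hdc, S100a8, S100a9 and Cxcr2 were added after their values were seen. AC105061.2 was added for the transcript sequence it shares with Csf3r. A few genes that this rule names are not reported here. Members and lists were chosen with earlier results of these data known. Of 10 microglia markers 9 were in the table. Promoters came from RefSeq and transcripts from GENCODE vM21, both on GRCm38.p6, which may not be the build of the counts.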

Additional observations from a re-analysis of the deposited data

How the results depend on the processing

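The rises of Csf1, Csf1r, Csf2rb and Csf3r after ICH kept their direction and stayed under an adjusted p of 0.05 in both genotypes under every alternative run, and so did Csf2ra except in Fabp4CKO without any 1 sham library. Members called higher were 5 in Fabp4fl_fl and 4 to 6 in Fabp4CKO without single libraries. The sixth was Csf3, which was also called in Fabp4CKO with no filter on low counts (adjusted p = 0.0315) and with all 12 libraries in 1 fit (adjusted p = 0.0136), against 0.062 and 0.057 in Fabp4fl_fl. Requiring a fold change of 2 gave 4097 genes called of 6707 in Fabp4fl_fl and 3423 of 5247 in Fabp4CKO. Leaving out single libraries gave 4181 to 8165 and 751 to 10099, the last without ICH-Fabp4CKO library 2. Each library of the Fabp4CKO comparison, and Sham-Fabp4fl_fl library 2 and ICH-Fabp4fl_fl library 2 in the other, moved its count by over 1.5 times. Between genotypes after ICH, 0 genes became 578 by DESeq2, 265 by the exact test, 362 with all 12 libraries in 1 fit, 1777 at an unadjusted p and 0 to 2 without single libraries. Members called higher became 1 by DESeq2, by the exact test and at an unadjusted p. In sham, 16 genes became 150 by DESeq2, 151 by the exact test, 2 with at least 10 counts in every library, 1471 at an unadjusted p and 0 to 2862 without single libraries, with 0 to 1 members lower. The interaction's 3 genes became 266 by DESeq2, 1500 at an unadjusted p and 0 to 371 without single libraries, with 2 members higher at an unadjusted p and 0 to 1 without single libraries. The cause of these shifts was not tested.

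The groups share replicate numbers, but same-numbered libraries did not deviate together (correlations of -0.61 to 0.36 over the 4 comparisons). With a replicate block the interaction called 1 gene and ICH against sham in Fabp4CKO called 3684, and no call of a member changed.

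None of the ratio comparisons had a call. Those given here changed sign when single libraries were left out, and the rest kept theirs. Csf1r over the microglia list ranged from -0.095 to 0.039 for ICH in Fabp4fl_fl and from -0.058 to 0.0043 between sham groups. Csf3r over the neutrophil list ranged from -0.54 to 0.77 for ICH in Fabp4CKO, from -1.15 to 0.17 between genotypes after ICH and from -0.45 to 0.30 in sham. Csf1 over Il34 ranged from -0.38 to 0.38 between genotypes after ICH, and Csf1 over Csf1r from -0.014 to 0.52 for ICH in Fabp4fl_fl. Depth limits Csf2 and Csf3 most, at 0 to 24 counts a library.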
